A study of Mus musculus with 12 samples.

Results

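Gene expression in tail tip fibroblasts with both copies of Hotair disrupted was compared with that in wild-type cells, over every gene measured well enough in either. Of the 24132 gene symbols measured, 10793 reached 1 RPKM in 2 or more of 4 libraries (2 wild type, 2 knockout) and form the set described here. RPKM is a read density scaled to the length of the gene and the size of the library. Of these genes, 9936 reached 1 RPKM in all 4 libraries, 700 in both knockout but not both wild-type libraries, 123 in both wild-type but not both knockout libraries, and 34 in 1 library of each. A gene of the second kind is said below to have entered through knockout and one of the third kind through wild type.

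The cells are fibroblasts grown from the tail tips of newborn mice on a background crossed back to C57BL6. Both groups were profiled as poly(A)-selected RNA made into dUTP libraries, a method that marks the strand. The wild-type group has intact Hotair and the knockout group has none. A heterozygous group (2 libraries) entered the statistical model only to help estimate the spread, and 6 ChIP-seq samples of the series are not analysed here. Nothing in the labels says that the 2 libraries of a group came from separate animals or cultures. All p-values below therefore set the difference between groups against the spread of these libraries, which is possibly technical alone. The variance between replicates, as a multiple of that of counting error, was 0.80 in wild type and 0.86 in knockout by quartiles over genes. As a mean over genes it was 1.14 and 1.64, and by quartiles between the first libraries of the groups it was 14.8. Genotype and cell preparation cannot be told apart.

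Hotair is a long noncoding RNA made from the HoxC cluster, where Hox genes set position along the body. It is known for its association with Polycomb repressive complex 2, which places a repressive mark on histone H3, and with the LSD1-CoREST complex, which removes an activating one. Dermal and tail fibroblasts make the collagen-rich matrix of connective tissue, keep a record of their body position in the Hox genes they express, and become contractile when they turn into myofibroblasts.

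The deleted RNA served as the check of the labels. Wild-type libraries held Hotair at 0.247 and 0.183 RPKM, and knockout libraries at 0. The wild-type mean lay at least 7.5-fold above the level that 3 read counts over the knockout group would give, a limit that covers counting error only. The gene is under the filter and was not tested. The knockout libraries were 1.64 times deeper than the wild-type ones (48.1M and 46.0M against 29.6M and 27.9M read equivalents), so low genes were measured more finely in knockout cells. All 3 tested Y-linked genes were higher in knockout, with a median log2 difference of 0.498. Of these only Eif2s3y was at least 2-fold apart, with 1.85 and 1.99 RPKM in wild type and 4.95 and 5.58 in knockout. Xist was under 0.1 RPKM in all 4 libraries.

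Fibroblast identity was shared by both groups. All 16 fibroblast markers of the list were detected in all 4 libraries, 15 of them at 1 RPKM or more, and their summed level was 5966 and 5991 RPKM in wild type and 5566 and 5586 in knockout. Within that list the collagen gene Col1a2, the intermediate filament gene Vim and the matrix gene Postn fell, with log2 differences of -0.33 ± 0.03, -0.31 ± 0.01 and -0.31 ± 0.04. Thy1, a surface protein of fibroblasts, stood at 193 and 188 RPKM in wild type and 94.05 and 95.6 in knockout. Pdgfra, the receptor that marks dermal fibroblasts, stood at 2.54 and 2.49 and 6.34 and 6.42. The groups did not overlap for either gene, and they moved in opposite directions.

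Differences were small for most genes and reproducible between the paired libraries of a group. The median size of the difference was 0.21 on the log2(RPKM + 1) scale, against a median difference of 0.05 between the wild-type and 0.04 between the knockout replicates. With limma and Benjamini-Hochberg adjustment at 0.05, 7298 genes (67.6% of those tested) differed, 4401 higher (40.8%) and 2897 lower (26.8%) in knockout. Of these calls, 51.5% were under 1.25-fold in size and 82.8% under 1.5-fold. Quantile normalization took the share of calls that were higher from 60.3% to 46.9%, median scaling to 47.9% and a filter at 5 RPKM to 48.1%, so the balance of directions depends on the scaling and on the low genes.

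A stricter description needs no estimate of spread: group means at least 2-fold apart on the log2(RPKM + 1) scale, with each knockout library beyond both wild-type libraries. Of the genes tested, 279 (2.59%) met it, 200 higher (1.85%) and 79 lower (0.732%) in knockout. Replicates were separated at any size for 84% of all genes, so it is the size that is selective here. An exact permutation test of 2 libraries against 2 cannot go below 0.333. The gap between the nearest libraries of the groups had a median of 1.15 over the 279 genes, and was 0.21 at its smallest. Of the 200 higher genes, 56 entered through knockout and 144 were at 1 RPKM or more in all 4 libraries (1.45% of such genes). Of the 79 lower genes, 68 were measured in all 4 (0.684%) and 11 entered through wild type. The 2-fold line lies between Gcnt4 at 1.0002 and Serpina3m at 0.999 on the higher side, and between Tnc at -1.0002 and Thy1 at -0.998 on the lower. Because the added 1 damps low values, this count moved to 671 with a pseudocount of 0.1 and to 86 with a pseudocount of 5.

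**Figure D1:**
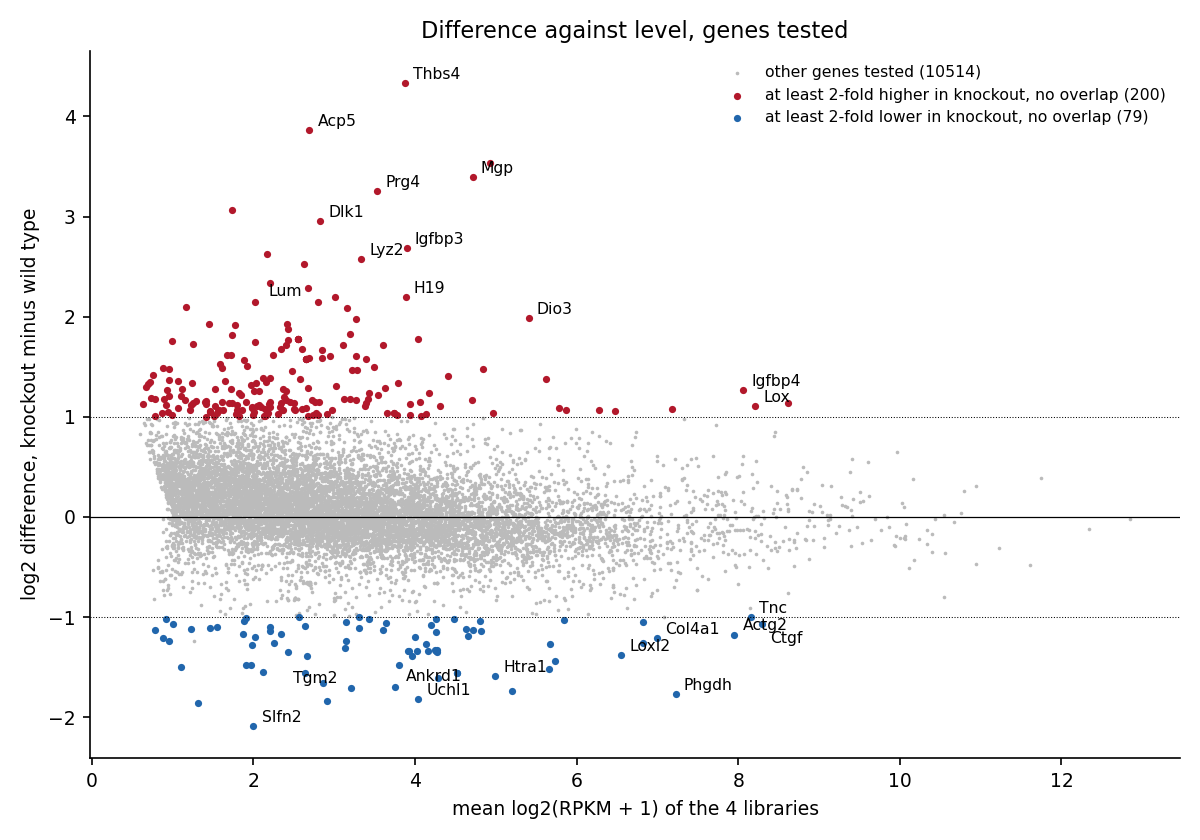
Each point is 1 of the 10793 genes tested, with the mean log2(RPKM + 1) of the 4 libraries on the horizontal axis and the log2 difference, knockout minus wild type, on the vertical axis; dotted lines mark 2-fold. The 200 higher genes reach 4.34 (Thbs4) and lie mostly at low and middle levels, while the 79 lower genes reach -2.09 (Slfn2) and include abundant genes such as Phgdh.

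Rises went further than falls. Of the 10793 genes tested, 19 were at least 4-fold higher with no overlap and 1, Slfn2, was at least 4-fold lower. The 19 include Acp5, 3000002C10Rik, Abi3bp, Cd68 and Tyrobp, which entered through knockout, and short microRNA rows. Slfn2 entered through wild type. Thbs4, a thrombospondin of tendon and muscle attachments, stood at 2.09 and 2.44 RPKM in wild type and 66.02 and 63.5 in knockout, a log2 difference of 4.34 ± 0.06 (SE; adjusted p = 1.21e-08). Mgp, a matrix protein that restrains calcification of soft tissue, stood at 6.71 and 7.48 and 85.7 and 82.2 (3.39 ± 0.07). Prg4, the lubricant of joint surfaces, stood at 2.64 and 2.83 and 33.8 and 35.4 (3.25 ± 0.05). For all of these the lowest knockout library was many times the highest wild-type library. The rise was then led by Dlk1, a membrane protein that restrains differentiation (1.46 and 1.65 RPKM, then 18.7 and 18.8), and Igfbp3, a carrier of insulin-like growth factor (4.81 and 4.93, then 36.8 and 36.8). Angptl7, a secreted angiopoietin-like protein, went from 1.73 and 1.43 to 14.4 and 13.4 RPKM, and Gas1, a membrane protein first known from growth-arrested fibroblasts, from 2.64 and 2.91 to 16.6 and 15.98. Acp5 and Abi3bp, also among the largest rises, were under 1 RPKM in both wild-type libraries.

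Falls were led by Slfn2, of the Schlafen family, known as regulators of immune cell growth, which stood at 6.71 and 7.79 RPKM in wild type and 0.883 and 0.998 in knockout (-2.09 ± 0.08) and entered through wild type. Uchl1, a neuronal deubiquitinase also made by fibroblasts, stood at 29.8 and 30.2 and 7.85 and 7.67 (-1.82 ± 0.04). Phgdh, the first enzyme of serine synthesis, stood at 276 and 275 and 78.3 and 81.7 (-1.77 ± 0.02). No knockout library overlapped a wild-type library for any of these. Further down were the serine protease gene Htra1 (53.95 and 54.7 to 17.7 and 17.1 RPKM), the mitochondrial carrier gene Ucp2 (22.4 and 22.1 to 7.31 and 7.43), Rgs16, a brake on G protein signals (86.2 and 86.8 to 30.8 and 31.7), and Plac8 (8.91 and 9.62 to 2.61 and 3.28). F11r, which encodes the junction protein JAM-A, and the gene row 1500015A07Rik fell (-1.50 ± 0.10 and -1.86 ± 0.07) and entered through wild type too.

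**Figure D2:**
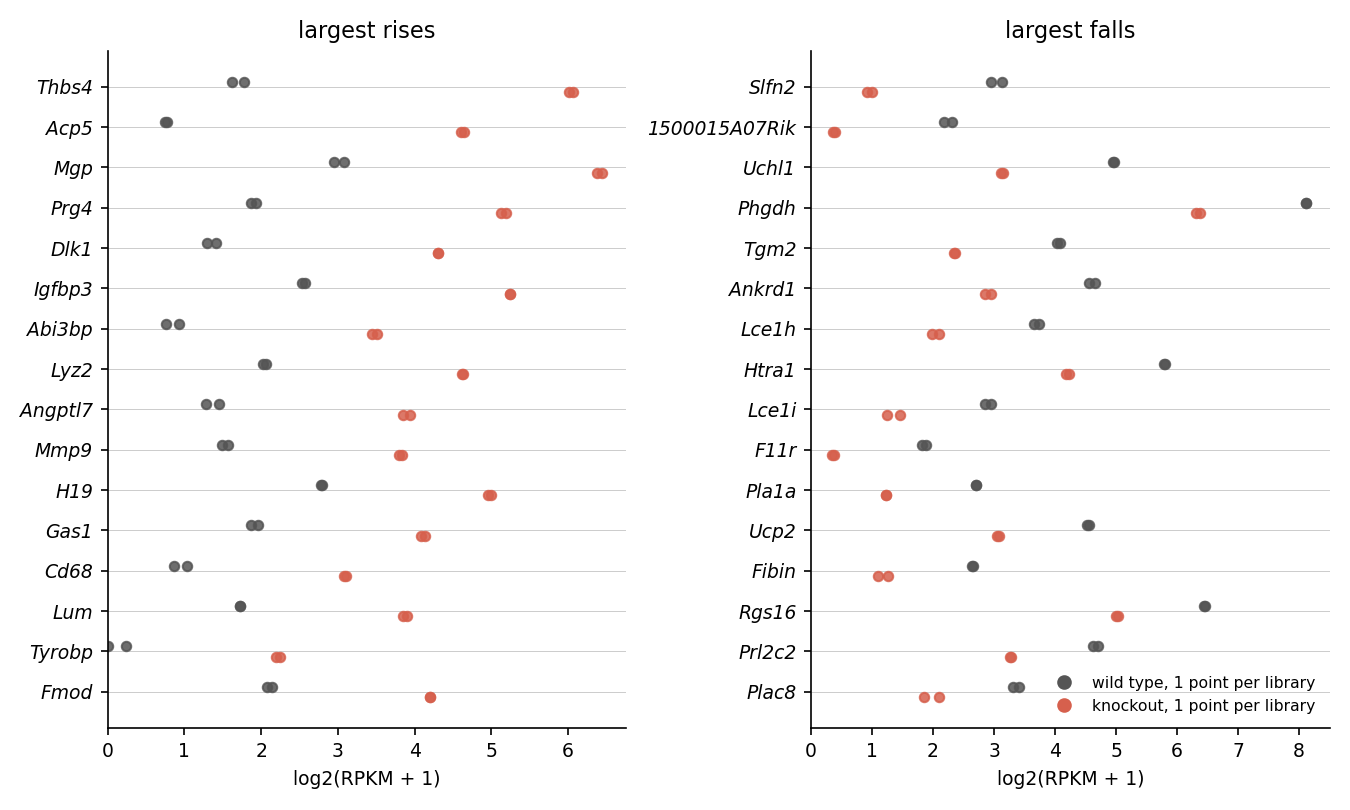
The 16 largest rises (left) and 16 largest falls (right) among genes at least 2-fold apart with no overlap, leaving out short, repeated and predicted rows; the horizontal axis is log2(RPKM + 1), grey points are the 2 wild-type and red points the 2 knockout libraries. The row 3000002C10Rik was also left out, because its knockout libraries stood far apart at 2.02 and 29.8 RPKM. Replicates lie close together for the genes shown, from Thbs4 to Plac8, in part through that choice. The groups are apart for each of them because lack of overlap was a condition of entry.

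The stretches just upstream of 5 of these genes are shown because the genes stand at the ends of the ranking and carry one of the searched motifs; they were chosen after the values were seen. Each is the 250 bases before the transcription start in RefSeq, 5′ to 3′ on the gene's strand, with coordinates in GRCm38.p6, which is not the mm9 build the reads were aligned to. Capitals mark matches to GGAATG, the core bound by TEAD factors (its reverse complement, cattcc, for Thbs4), or to TATAAA, the letters of the TATA box, which works a short way before the start. Thbs4 (chr13:92794819-92795068, minus strand) holds 2 overlapping matches; Ankrd1 (chr19:36119845-36120094, minus strand), a target of the TEAD partner YAP, holds 2; and Slfn2 (chr11:83064862-83065111, plus strand) holds 1. Dio3 (chr12:110278980-110279229, plus strand) has TATAAA at -31 to -26, and Phgdh (chr3:98339970-98340219, minus strand) has it farther upstream, at -189 to -184.
Thbs4: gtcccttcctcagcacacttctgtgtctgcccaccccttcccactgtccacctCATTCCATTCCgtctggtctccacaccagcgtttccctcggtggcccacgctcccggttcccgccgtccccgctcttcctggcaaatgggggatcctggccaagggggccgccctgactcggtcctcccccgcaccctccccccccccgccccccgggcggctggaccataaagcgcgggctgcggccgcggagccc
Ankrd1: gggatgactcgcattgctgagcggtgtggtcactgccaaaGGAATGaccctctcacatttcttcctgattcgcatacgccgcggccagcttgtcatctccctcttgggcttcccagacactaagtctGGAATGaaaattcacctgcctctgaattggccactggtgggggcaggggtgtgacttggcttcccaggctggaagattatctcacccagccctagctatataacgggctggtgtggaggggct
Slfn2: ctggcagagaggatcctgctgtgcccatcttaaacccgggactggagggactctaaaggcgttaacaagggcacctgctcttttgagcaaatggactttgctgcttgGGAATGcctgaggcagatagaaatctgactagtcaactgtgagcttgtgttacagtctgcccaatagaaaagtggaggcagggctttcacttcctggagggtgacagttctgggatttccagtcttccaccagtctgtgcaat
Dio3: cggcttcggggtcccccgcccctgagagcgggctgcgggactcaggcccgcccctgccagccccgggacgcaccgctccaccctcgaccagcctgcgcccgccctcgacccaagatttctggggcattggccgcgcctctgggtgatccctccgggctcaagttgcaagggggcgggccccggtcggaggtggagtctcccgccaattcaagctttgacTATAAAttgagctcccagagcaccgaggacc
Phgdh: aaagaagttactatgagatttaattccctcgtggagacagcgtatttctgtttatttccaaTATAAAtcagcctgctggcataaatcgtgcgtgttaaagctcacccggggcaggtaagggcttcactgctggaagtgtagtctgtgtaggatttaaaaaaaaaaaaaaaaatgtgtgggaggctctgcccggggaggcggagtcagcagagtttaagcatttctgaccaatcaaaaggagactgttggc

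Motif shares were counted over the 300-base window (250 before and 50 after the start) of every gene in the promoter table, on both strands. There were 128 promoters for the 200 higher genes, 57 for the 79 lower and 8443 for the 10793 tested. Genes such as Mgp, Prg4, Lum, Ctgf and Loxl2 had none, so the shares leave out part of each set. TATAAA was found in 18% of 128 promoters of genes at least 2-fold higher, in 22.8% of 57 of genes at least 2-fold lower, in 6.92% of the 8443 of tested genes and in 14.2% of all 27025. GGAATG was found in 8.59%, 17.5%, 11.7% and 14.6% of the same sets. TGANTCA, the AP-1 motif, was found in 7.81%, 8.77%, 4.71% and 7.93%, and TGATGNAA, which Atf4 and C/EBP proteins bind together, in 2.34%, 3.51%, 2.11% and 4.06%. Promoters of both 2-fold sets thus held the letters TATAAA, anywhere in the window and on either strand, more often than those of tested genes as a whole, as a description with no test. A match away from the usual place of a TATA box is not one. The lower set includes copies of histone H4 genes, which have near-identical promoters.

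Small leucine-rich proteoglycans, which bind collagen fibrils and set their width, were mostly higher in knockout cells. The list had 14 members in the table and 7 measured in all 4 libraries. Of these 6 rose, 4 of them at least 2-fold, and 1 fell, with a median log2 difference of 1.11. Over all genes measured in all 4 libraries 66.2% were called, 38.1% higher and 28.2% lower, and the median was 0.04. List counts below are over members measured in all 4 libraries, unless given as tested or as passing the filter, and are to be read against these shares. Lum (lumican) stood at 2.31 and 2.32 RPKM in wild type and 13.4 and 13.9 in knockout, Fmod (fibromodulin) at 3.21 and 3.43 and 17.4 and 17.3, and Prelp at 2.89 and 3.48 and 11.6 and 11.4. Dcn (decorin) stood at 11.8 and 13.3 and 29.6 and 26.8, and Bgn (biglycan), by far the most abundant of them in RPKM, at 1009 and 996 and 1302 and 1309. In each case both knockout libraries lay above both wild-type libraries. Ogn entered through knockout (0.795 and 0.832, then 4.79 and 4.37), and the one fall was that of Podnl1 (-0.27 ± 0.05).

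Tendon and joint lining genes shared the direction: 10 of 12 rose, 7 of them at least 2-fold, and 2 fell (median 1.26). Scx, the transcription factor of tendon progenitors, stood at 2.61 and 2.51 RPKM in wild type and 6.69 and 6.197 in knockout (1.06 ± 0.05). Tnmd (tenomodulin), a membrane protein of mature tendon that Scx is known to induce, stood at 1.73 and 2.11 and 9.39 and 8.48 (1.77 ± 0.07), and Cilp, of cartilage intermediate layers, at 2.87 and 2.59 and 10.3 and 10.2 (1.59 ± 0.05). None of the libraries overlapped between groups. The falls were those of Tnc, tenascin-C of tendon and wounds (399.99 and 407, then 201 and 201), and the small heat shock gene Hspb8 (-0.65 ± 0.03).

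In the elastic fibre and microfibril list 11 of 15 rose and 4 fell. Fbn2, the fibrillin of developing microfibrils, went from 1.31 and 1.14 to 6.56 and 6.32 RPKM and Efemp1, a fibulin, from 6.06 and 6.19 to 15.5 and 14.7. Ltbp1, which tethers latent TGF-beta to microfibrils, and the related Ltbp2 rose by 0.89 ± 0.04 and 0.68 ± 0.02. The fibulin gene Fbln1 went the other way, from 14.1 and 14.7 to 7.05 and 6.17. Among mineralization regulators 5 of 6 rose, with Enpp1, which makes the calcification inhibitor pyrophosphate, at 2.71 and 2.71 and then 8.71 and 8.54 RPKM, Spp1 (osteopontin) at 264 and 262 and then 579 and 576, and the pyrophosphate transporter gene Ank at 18.4 and 17.6 and then 29.2 and 27.5. Matricellular genes divided, with 6 higher and 8 lower of 17, a balance that turned upward without a filter on low values. Wisp2 rose by 1.41 ± 0.03 and Vcan (versican) by 0.93 ± 0.04, while Ctgf (-1.07 ± 0.01) and Sparc (-0.36 ± 0.01) fell.

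Collagen chains and the enzymes that assemble them were mostly lower. Of 19 chains 14 fell and 4 rose (median -0.28). The 2-fold falls were Col4a1 (195 and 191 RPKM in wild type, 81.97 and 83.8 in knockout), Col4a2 (176 and 173, then 72.3 and 72.5) and Col5a3 (36.5 and 37.5, then 15.3 and 16.1). Col4a1 and Col4a2 form the collagen IV network of basement membranes and share a promoter region, transcribed in opposite directions. They fell by nearly the same amount (-1.21 ± 0.02 and -1.26 ± 0.02). The rises among chains were smaller, with Col6a1 and Col6a2, paired chains of the collagen VI microfilament, at 0.41 ± 0.02 and 0.40 ± 0.01, and Col8a1 at 0.37 ± 0.04.

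In the list of collagen processing and crosslinking 17 of 25 fell and 5 rose. The lysyl oxidases, which crosslink collagen and elastin, moved in opposite directions: Lox stood at 199 and 203 RPKM in wild type and 435 and 435 in knockout (1.11 ± 0.02), and Loxl2 at 151 and 150.2 and 57.03 and 57.4 (-1.38 ± 0.02). Loxl1 rose by 0.37 ± 0.02. The groups did not overlap for any of the 3 genes. Tgm2, a transglutaminase that crosslinks matrix proteins, fell from 15.96 and 15.4 to 4.07 and 4.16, and the enzymes that trim procollagen ends fell too, with Adamts2 at -0.84 ± 0.04, Adamts14 at -0.96 ± 0.07 and Bmp1 at -0.72 ± 0.03. In the basement membrane list 8 of 14 fell and 3 rose, and apart from collagen IV the falls included Nid1 (nidogen, -0.78 ± 0.02), Agrn (agrin, -0.79 ± 0.04) and Lamb1 (-0.45 ± 0.03), while Smoc2 rose by 0.85 ± 0.03.

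Enzymes that degrade matrix showed a smaller shift. Of 11 matrix metalloproteinases 6 rose and 1 fell. Mmp9, gelatinase B of fibroblasts, osteoclasts and leukocytes, stood at 1.82 and 1.97 RPKM in wild type and 13.3 and 12.9 in knockout (2.29 ± 0.06). The collagenase Mmp13 stood at 9.36 and 10.01 and 20.4 and 19.2 (0.96 ± 0.04), and Mmp17 fell by 0.81 ± 0.05. All 4 measured inhibitors were called higher, led by Timp2 (0.55 ± 0.01); Reck, at 0.17 ± 0.05, turned to -0.05 after quantile normalization and lost its call without the first wild-type (0.15) or either knockout library (0.16 and 0.18). In the list of serpins and plasminogen genes 13 of 20 fell. The falls were led by Htra1, a serine protease gene that belongs to neither group but was placed in the list, and by Serpinb9b (-1.28 ± 0.07). Serpina3n, an acute phase serpin, rose from 10.7 and 9.73 to 23.5 and 24.1 RPKM.

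Contractile genes were lower almost throughout. Of the 32 measured, 26 fell, 3 rose and 3 did not pass the test, with a median of -0.34. Cnn1 (calponin) stood at 157 and 167 RPKM in wild type and 77.8 and 77.9 in knockout (-1.05 ± 0.03), the cardiac actin gene Actc1 at 31.4 and 30.1 and 15.3 and 14.2 (-1.02 ± 0.04) and the smooth muscle actin gene Actg2 at 373 and 367 and 162 and 165 (-1.17 ± 0.02). These 3 genes were at least 2-fold apart without overlap. Acta2, the actin by which myofibroblasts are recognised, fell by 0.80 ± 0.01, and Tagln2 (-0.91 ± 0.01) and Csrp1 (-0.76 ± 0.01) fell with it. Des (desmin) went the other way, from 1.04 and 1.23 to 3.22 and 2.81.

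Target genes of the tension-sensitive factors YAP and SRF gave 10 lower and 3 higher of 17. Ankrd1 stood at 24.1 and 22.6 RPKM in wild type and 6.25 and 6.75 in knockout (-1.70 ± 0.05), and Ctgf at 450.3 and 455 and 215 and 214. Cyr61, another common readout of YAP, fell by 0.33 ± 0.01. Not all members followed: the tissue factor gene F3 rose by 0.31 ± 0.02 and Ptpn14, a partner of YAP, by 0.21 ± 0.03. Integrin subunits, the matrix receptors that link to actin, gave 5 lower and 3 higher of 10, a balance that turned without a filter on low values. Itga5 of the fibronectin receptor stood at 229 and 232 and 137 and 140.02 (-0.73 ± 0.02), Itgb3 (-0.98 ± 0.04) and Itga7 (-0.98 ± 0.05) fell, while the collagen receptor gene Itga11 rose by 0.59 ± 0.04.

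Several secreted growth factor systems held both large rises and large falls. In the IGF system 7 of 17 rose and 6 fell, and the sign of the median depended on the scaling. Igfbp2 stood at 1.58 and 1.92 RPKM in wild type and 9.58 and 9.26 in knockout (1.92 ± 0.07) and Igfbp4, the most abundant binding protein gene in knockout, at 169 and 173 and 409 and 415 (1.27 ± 0.02). Igfbp7 (-0.77 ± 0.03) and Igfbp5 (-0.61 ± 0.03) fell. Binding proteins of the same ligands therefore moved in both directions without overlap of the replicates.

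Among Wnt pathway genes 10 of 20 rose and 3 fell. The receptor genes Fzd1 (6.15 and 5.91 RPKM, then 15.5 and 15.7) and Lgr4 (1.03 ± 0.05) and the secreted inhibitor gene Sfrp1 (1.12 ± 0.05) rose. Sfrp2, Notum and Wnt10a, under 1 RPKM in wild type, stood at 2.42 and 2.304, 1.93 and 1.96 and 1.44 and 1.58 in knockout. The 3 falls among genes measured throughout were those of the ligands Wnt4 (13.2 and 12.8, then 5.94 and 6.07), Wnt5a (-0.74 ± 0.03) and Wnt9a (-0.26 ± 0.05). Growth factors of the FGF and receptor tyrosine kinase list that rose were Fgf7, the keratinocyte growth factor (5.08 and 5.08, then 17.1 and 17.1), and Figf, also called VEGF-D (6.15 and 5.26, then 16.98 and 18.7). Feedback inhibitors of that pathway fell, with Spry1 at -0.97 ± 0.05, Spry4 at -0.97 ± 0.04 and the phosphatase gene Dusp4 at -1.31 ± 0.04. The balance of that list (12 higher and 9 lower) turned with a filter at 5 RPKM.

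The BMP and TGF-beta list gave 14 higher and 11 lower of 28, with a median whose sign turned after quantile normalization. The co-receptor gene Tgfbr3 (betaglycan) stood at 4.505 and 4.52 RPKM in wild type and 15.996 and 15.7 in knockout, and Id2, a target of BMP signals, at 2.501 and 2.84 and 6.95 and 7.33. The ligand genes Tgfb1, Tgfb2 and Tgfb3 fell (-0.49 ± 0.04, -0.93 ± 0.09 and -0.43 ± 0.02). Receptor genes Bmpr1a and Bmpr2 rose by 0.79 ± 0.04 and 0.69 ± 0.06. All 3 TGF-beta ligand genes were thus lower in both knockout libraries. In the Notch list, beside Dlk1, the ligand gene Jag1 fell from 5.75 and 5.94 to 2.17 and 2.03 and the receptor gene Notch2 rose by 0.59 ± 0.04.

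Cytokine receptors were among the rises. Of 23 cytokine and receptor genes 12 rose and 6 fell. Il6st, the shared signal chain of the IL-6 family, stood at 29.7 and 29.6 RPKM in wild type and 78.6 and 78.1 in knockout (1.37 ± 0.02). Il1rl1, the IL-33 receptor, stood at 36.3 and 36.996 and 79.4 and 78.6 (1.09 ± 0.02), and Il1r1 at 2.34 and 2.51 and 6.57 and 7.13 (1.20 ± 0.05). Osmr, the oncostatin M receptor that pairs with Il6st, rose by 0.88 ± 0.04. Of 9 chemokine genes 7 rose and 0 fell, with Cxcl5 at 3.94 and 3.55 and then 14.9 and 14.3, Cxcl14 at 16.2 and 16.5 and then 38.1 and 38.1, and Ppbp at 153 and 154 and then 292 and 289. Interferon response genes divided, 9 higher and 6 lower of 26, a balance that turned under both scalings. Of 20 MHC and antigen presentation genes 11 were called lower, 9 were not called and 0 were higher. The class I genes H2-D1 and H2-K1 fell by 0.60 ± 0.03 and 0.48 ± 0.04. Class I genes are similar enough in sequence to share reads, so their rows are not independent.

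**Figure D3:**
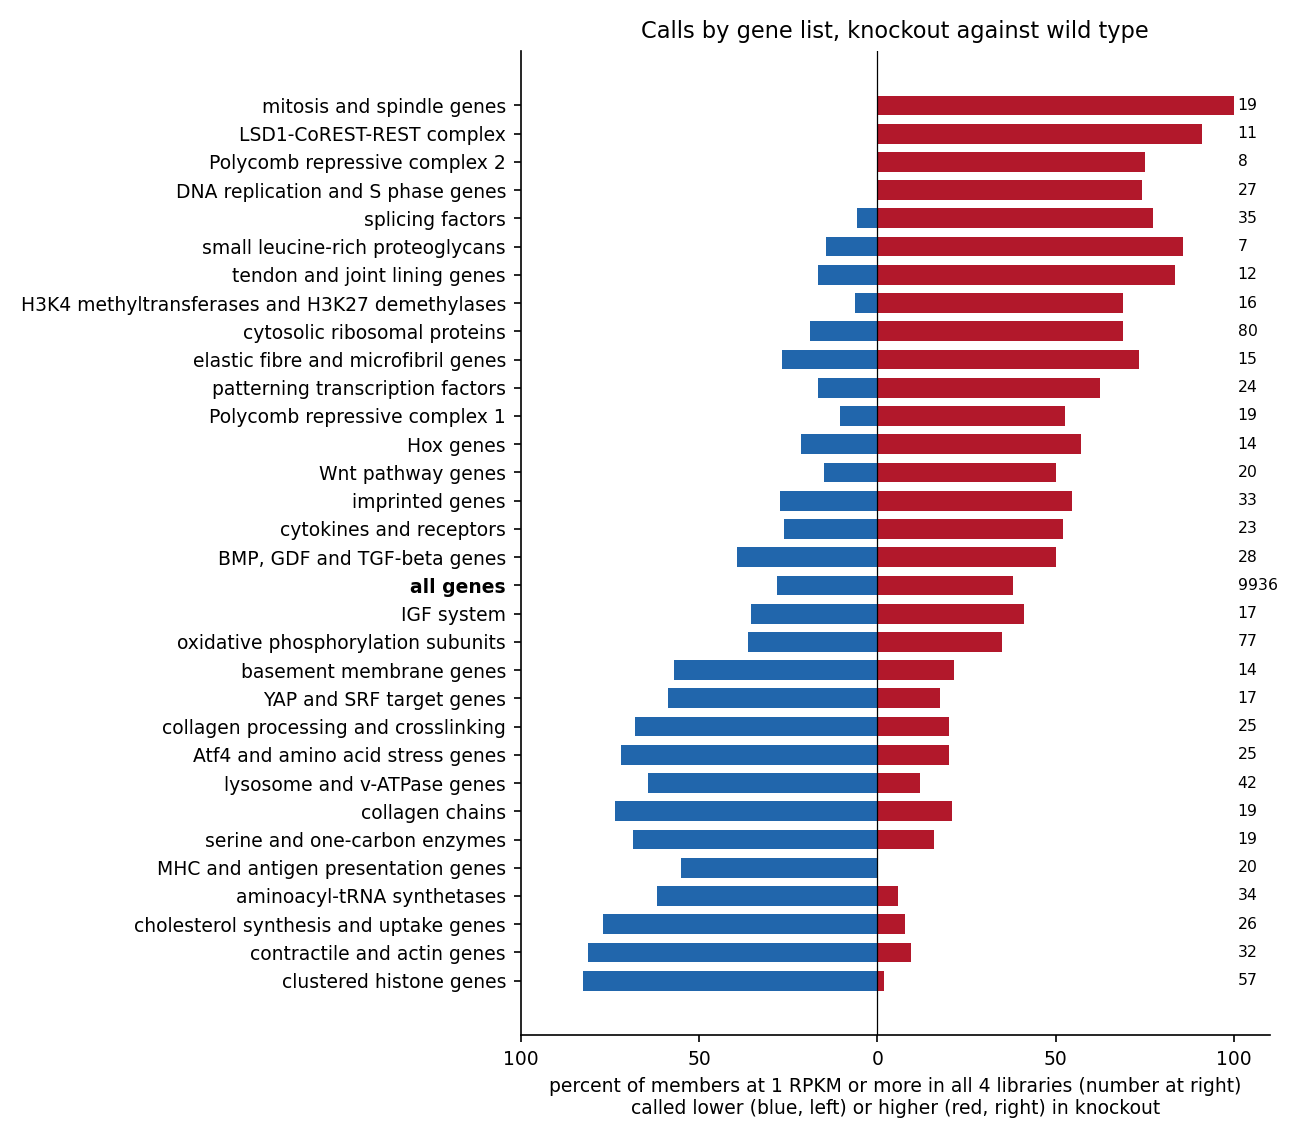
For 32 rows, the percent of members at 1 RPKM or more in all 4 libraries that limma called lower (blue, left) or higher (red, right) in knockout, ordered by the difference of the shares; the number of such members is at the right. The row of all 9936 genes stands at 38.1% higher and 28.2% lower, mitosis genes are at the top with all 19 higher, and clustered histone genes at the bottom with 47 of 57 lower.

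Markers of myeloid cells were higher in the knockout libraries. Of 33 macrophage and leukocyte markers 8 passed the filter, 5 of them through knockout, so their count is not evidence of a shift. Of the 3 measured in all 4 libraries 2 were called higher and 1 was not called. The summed level of the 33 markers was 12.3 and 10.8 RPKM in wild type and 66.4 and 67.2 in knockout. Lyz2, a lysozyme of macrophages, stood at 3.199 and 3.06 and 23.8 and 23.5, Laptm5, a lysosomal protein of blood cells, at 3.902 and 2.33 and 11.4 and 12.3, and Csf1r, the receptor by which macrophages survive, at 0.401 and 0.574 and 2.76 and 2.73. Both knockout libraries lay above both wild-type libraries for all of these. Among defining markers, Cd68 stood at 7.47 and 7.61 in knockout, while Emr1 (F4/80) stood at 0.397 and 0.275, Itgam at 0.2704 and 0.2303, Ptprc (CD45) at 0.0576 and 0.0683 and Mpeg1 at 0.383 and 0.321, each above its wild-type values but under 1 RPKM. Lyz1 and Lyz2 lie side by side and are close copies, so their rows may share reads. The leukocyte genes Tyrobp, Fcer1g, Sfpi1 (PU.1), Mnda, Rac2 and Lcp1 entered through knockout too, and all were under 1 RPKM in both wild-type libraries. In knockout they stood at 3.72 and 3.56, 2.59 and 2.71, 1.79 and 2.42, 4.76 and 4.81, 1.45 and 1.82 and 2.14 and 2.3005. Of these, Sfpi1, Mnda, Rac2 and Lcp1 are outside the marker list.

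Osteoclast genes moved unevenly. Acp5, the acid phosphatase by which osteoclasts are stained, stood at 0.716 and 0.674 RPKM in wild type and 23.3 and 23.97 in knockout (3.86 ± 0.06), and Atp6v0d2 at 0.0404 and 0 and 1.51 and 1.599. The fusion genes Dcstamp (0 and 0.0359, then 0.626 and 0.798) and Ocstamp (0.0345 and 0.0361, then 0.916 and 0.772) stayed under the filter. Calcr, the calcitonin receptor of mature osteoclasts, was at 0 in wild type and at 0.0643 and 0.0391 in knockout. Against these, the collagenolytic cathepsin gene Ctsk fell from 19.3 and 19.2 to 11.4 and 10.6, and Itgb3 fell as given above. The summed level of the list was 67.7 and 69.1 in wild type and 96.01 and 96.9 in knockout. Fewer or more cells of a type and less or more RNA per cell cannot be told apart in such bulk samples, and the part of myeloid cells in the rises of Mmp9, Spp1, Apoe (1.03 and 1.098, then 3.32 and 3.805) and the chemokine genes was not tested.

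Markers of other cell types moved in both directions. Defining keratinocyte markers (Krt5, Krt14, Krt1, Cdh1 and Epcam) were under 0.1 RPKM in all 4 libraries. Of the 41 keratinocyte markers 9 passed the filter, 2 of them through wild type and 1 through knockout. Of the 6 measured in all 4 libraries 5 were lower and 1 was higher. The largest falls were in the late cornified envelope cluster, with Lce1h (12.3 and 11.5 RPKM, then 3.26 and 2.96), Lce1i (6.69 and 6.201, then 1.74 and 1.36) and Lce1g (4.21 and 4.31, then 1.71 and 1.42); these neighbours are close in sequence. Krt19 fell by 0.25 ± 0.04, while Sfn, the epithelial 14-3-3 sigma gene, entered through knockout (0.352 and 0.2204, then 1.95 and 1.64) and Perp rose by 0.21 ± 0.06, a call lost without the first wild-type (0.16) or the second knockout library (0.15). Of 8 Schwann cell and neural crest markers measured in all 4 libraries 3 fell, among them Ngfr and Sox10 (-0.84 ± 0.04 and -0.53 ± 0.06). In the same list 2 rose, Egr2 and L1cam (0.39 ± 0.06 and 0.27 ± 0.06), and 1 more fall entered through wild type. The call of L1cam was lost after quantile normalization (0.06). Endothelial Pecam1, Cdh5 and Kdr were under 0.1 RPKM in all 4 libraries. Summed levels of the keratinocyte list were 51.3 and 48.9 in wild type and 25.4 and 24.7 in knockout, and of the Schwann cell and neural crest list 87.3 and 86.6 and 74.9 and 75.98.

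Summed levels also differed in lists of cartilage and bone, skeletal muscle and neuronal markers, each carried by a few genes. Cartilage and bone markers summed to 272 and 271 RPKM in wild type and 597 and 594 in knockout, most of it Spp1. All 6 of the 22 that passed the filter were called higher, 3 of them entering through knockout. Sox9, the factor of cartilage progenitors, and Runx2, that of bone progenitors, rose by 0.61 ± 0.05 and 0.44 ± 0.05. The cartilage collagen gene Col2a1 (0.0692 and 0.0534, then 0.457 and 0.391) and the bone factor gene Sp7 (0.0587 and 0.0471, then 0.325 and 0.403) were higher in knockout but under the filter, and Bglap (osteocalcin) was under 0.1 RPKM in all 4 libraries. Skeletal muscle markers summed to 279 and 279.9 and 179.9 and 179.7, mostly Acta1, the skeletal actin gene, which fell by 0.62 ± 0.02; of 4 tested, 2 fell and 1 rose, and Myod1, Myog and Ckm were under 0.1 RPKM in all 4. Neuronal markers summed to 87.4 and 88.7 and 47.1 and 48.3, and of 9 tested 6 fell, led by Uchl1 and with the tubulin gene Tubb3 at -0.69 ± 0.04, and 2 rose, Syt11 (0.23 ± 0.05, lost at 0.02 after quantile normalization) and Rab3b, which entered through knockout (0.408 and 0.402, then 4.41 and 4.26). The neuronal genes Elavl3, Snap25 and Gad1 were under 0.1 RPKM in all 4 libraries. The cartilage and bone list shares Spp1 with the mineralization genes, and the muscle list shares Actc1 and Des with the contractile genes. The part of these cell types in the tendon, mineralization, contractile and other results was not tested.

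**Figure D4:**
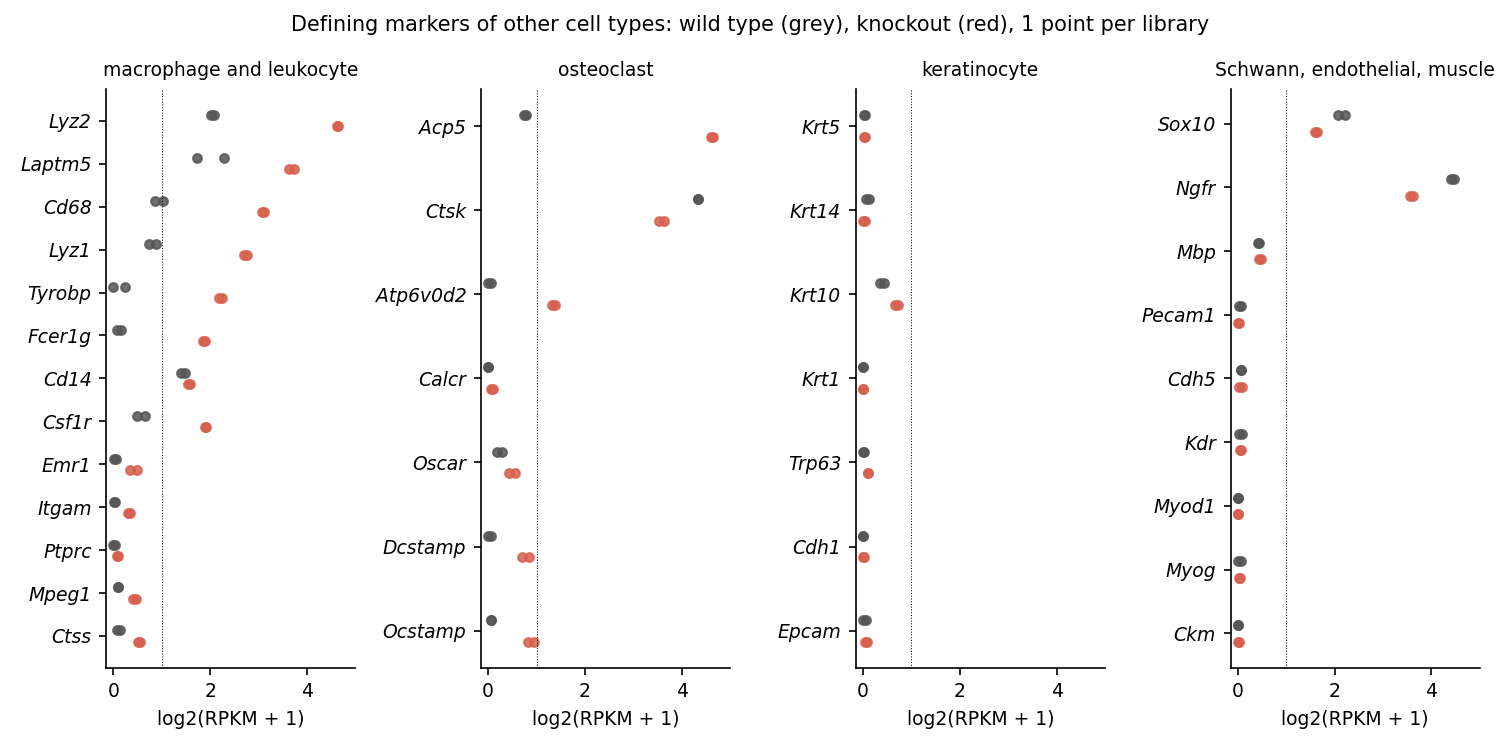
Levels of defining markers of other cell types, log2(RPKM + 1) on the horizontal axis, with 2 wild-type (grey) and 2 knockout (red) libraries per gene; the dotted line marks 1 RPKM. Lyz2, Laptm5, Cd68 and Acp5 are far to the right in knockout, Emr1, Itgam, Ptprc and Mpeg1 stay left of the line, and keratinocyte and endothelial markers are near 0 in both groups.

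Genes of amino acid metabolism were mostly lower in knockout cells. Of 19 serine and one-carbon enzymes 13 fell and 3 rose. After Phgdh, the next steps of serine synthesis fell as well: Psat1 stood at 73.4 and 72.9 RPKM in wild type and 51.6 and 50.6 in knockout (-0.51 ± 0.03), and Psph at 25.9 and 26.4 and 12.1 and 12.6 (-1.02 ± 0.03). Mthfd2, the mitochondrial folate enzyme that uses serine carbon, stood at 29.8 and 32.3 and 16.3 and 16.01 (-0.90 ± 0.04). The mRNAs of Phgdh, Psat1 and Psph, the enzymes from glycolytic intermediate to serine, were thus lower in both knockout libraries. Enzyme activity and metabolites were not measured. Atf4 is the factor induced by amino acid shortage. The list of Atf4 and amino acid stress genes gave 18 lower and 5 higher of 25, with 1 rise and 1 fall of at least 2-fold. Among the falls were Asns (-0.81 ± 0.03), Trib3 (-0.97 ± 0.04), Slc7a5 (-0.95 ± 0.03) and Bcat1 (-1.08 ± 0.04). Atf4 mRNA itself rose, by 0.17 ± 0.02. Aminoacyl-tRNA synthetases, which charge tRNAs, fell in 21 of 34 cases and rose in 2. The largest falls were in cytosolic enzymes, Sars (-0.79 ± 0.03), Cars (-0.60 ± 0.05), Yars (-0.59 ± 0.03) and Aars (-0.56 ± 0.03), while Dars rose by 0.46 ± 0.05.

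Sterol genes behaved similarly. Of 26 cholesterol synthesis and uptake genes 20 fell and 2 rose (median -0.36). Fdps, which makes farnesyl diphosphate, stood at 62.1 and 61.4 RPKM in wild type and 34.8 and 33.01 in knockout (-0.85 ± 0.03). Dhcr7, of the last step, fell too (-0.64 ± 0.04). Idi1 was one of the exceptions, with a rise of 0.49 ± 0.07. Lysosome and v-ATPase genes were lower in 27 of 42 and higher in 5, with no 2-fold fall (Atp6v0e -0.55 ± 0.02, Atp6v0b -0.51 ± 0.04). Among antioxidant genes 16 of 29 fell, including the Nrf2 targets Txnrd1 (-0.72 ± 0.03) and Srxn1 (-0.47 ± 0.03), while Cyp1b1, a target of the aryl hydrocarbon receptor, rose from 1.61 and 1.75 to 5.701 and 6.35. That receptor's gene, Ahr, and its repressor gene Ahrr and target Tiparp rose too (1.07 ± 0.05, 1.24 ± 0.06 and 1.29 ± 0.05; chosen after their values were seen). Glycolysis and hypoxia genes gave 14 higher and 12 lower of 28, with Bnip3 at 1.14 ± 0.06 and Adm at 0.93 ± 0.03 but the enzyme gene Pgk1 at -0.36 ± 0.02.

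**Figure D5:**
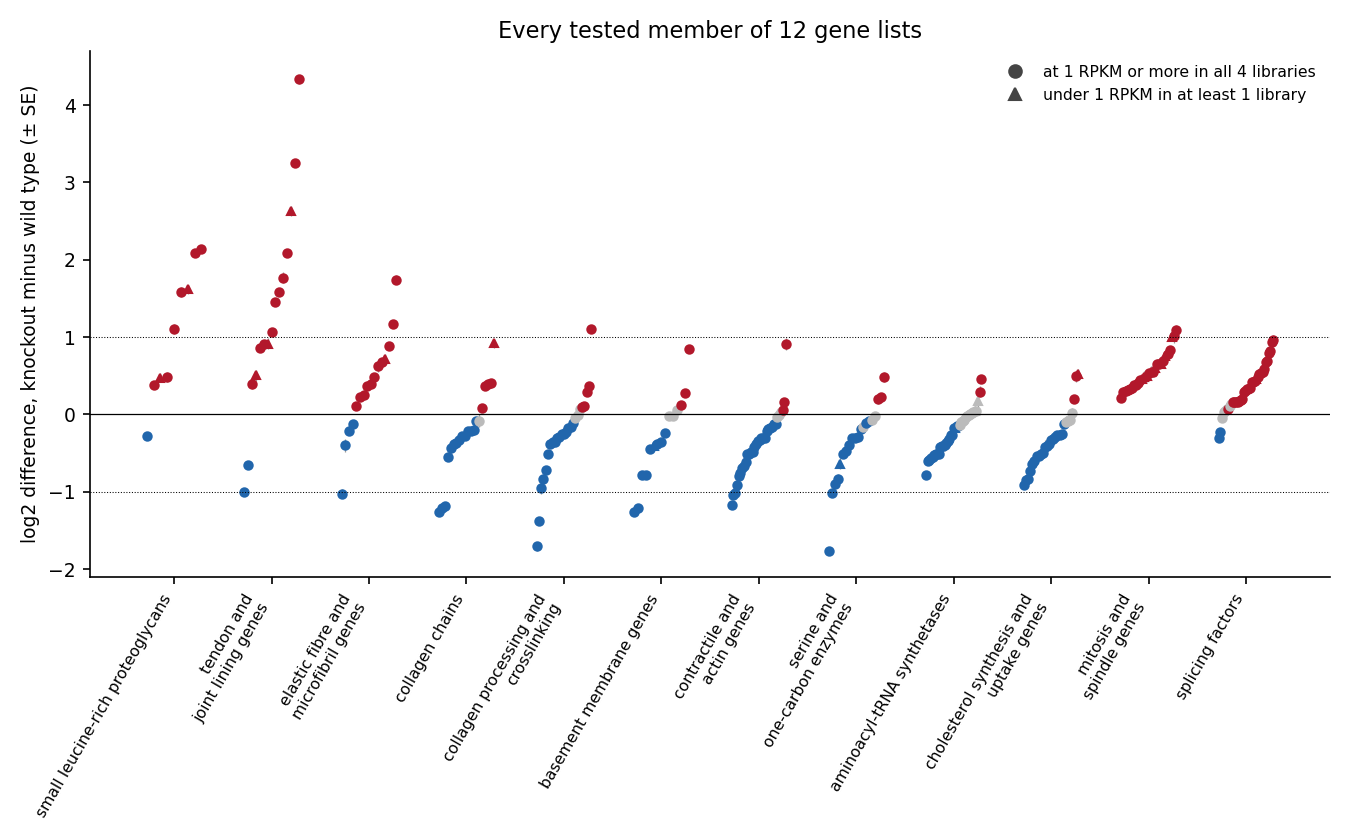
The log2 difference, knockout minus wild type, of each tested member of 12 gene lists, ordered within a list; red points were called higher, blue lower and grey not called by limma, triangles were under 1 RPKM in at least 1 library, and bars are SE, mostly smaller than the points. Proteoglycan and tendon genes extend above the upper 2-fold line, collagen, crosslinking and contractile genes lie mostly below 0, and all mitosis genes lie above 0.

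Genes of cell division were higher but low. All 19 mitosis and spindle genes measured in all 4 libraries rose (median 0.45). Another 8 entered through knockout, so their direction follows largely from that entry. Top2a, the topoisomerase of dividing cells, stood at 1.601 and 1.78 RPKM in wild type and 4.903 and 4.61 in knockout (1.10 ± 0.06), and Prc1, of the spindle midzone, at 2.12 and 2.03 and 5.898 and 4.58 (1.01 ± 0.09). The groups did not overlap, although neither gene reached 6 RPKM. Of 27 replication genes 20 rose and 0 fell, with Mcm6 of the helicase at 0.77 ± 0.05 and Pcna, the sliding clamp, at 27.3 and 24.8 and then 41.3 and 41.4. The list of p53 targets and cell cycle inhibitors was divided, with 10 higher and 8 lower of 24, and a filter at 5 RPKM turned it to 3 higher and 8 lower. Among its falls were the inhibitor genes Cdkn2a, Cdkn2b and Cdkn1a (-0.70 ± 0.03, -0.46 ± 0.03 and -0.33 ± 0.01), and among its rises Cdkn2c (2.07 and 1.52, then 4.85 and 4.69), Trp53inp1 (1.84 and 1.78, then 5.01 and 5.13) and Ccng1 (0.61 ± 0.02).

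Genes for RNA handling and chromatin were shifted upward by small steps. Splicing factors were higher in 27 of 35 cases and lower in 2, with Hnrnph1 at 0.93 ± 0.03, Hnrpdl at 0.96 ± 0.06 and Hnrnpa3 at 0.82 ± 0.03. Cytosolic ribosomal protein genes gave 55 higher and 15 lower of 80, from Rps24 at 0.80 ± 0.01 to Rps14 at -0.50 ± 0.01; many have processed copies in the genome that can share reads. The subunit genes of Hotair's known partner complexes were higher: 6 of 8 for Polycomb repressive complex 2 (Suz12 0.62 ± 0.05, Eed 0.43 ± 0.05, Ezh2 0.41 ± 0.06) and 10 of 11 for the LSD1-CoREST-REST list (Zmym2 0.73 ± 0.05, Rest 0.45 ± 0.04), with none lower in either. Of 16 genes in the list of H3K4 methyltransferases and H3K27 demethylases 11 rose as well, led by Mll5 (1.02 ± 0.05), and 1 fell. With a filter at 5 RPKM, 3 of 4 genes of Polycomb repressive complex 2, 5 of 6 of the LSD1-CoREST-REST list and 6 of 11 of the methyltransferases and demethylases were called higher. Median scaling left 1 lower call in each of the first 2 lists. Over all genes with a mean under 3 RPKM the median difference was 0.23, against -0.11 for those at 30 to 100 RPKM. The part of level and depth in these shifts was not tested.

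Several long noncoding RNAs were higher in knockout cells. Malat1, retained in nuclear speckles, stood at 16.5 and 16.1 RPKM in wild type and 47.3 and 46.6 in knockout (1.47 ± 0.03). Neat1, the scaffold of paraspeckles and its neighbour on chromosome 19, stood at 5.59 and 4.65 and 12.5 and 13.1 (1.18 ± 0.07). Gas5, which hosts small nucleolar RNAs, stood at 1.99 and 2.303 and 5.66 and 5.76 (1.09 ± 0.09). All of these were separated between the groups; they are named after their values were seen. Of 164 genes that the reference table lists as long noncoding RNA, 8 were at least 2-fold higher (4.88%) and 4 lower (2.44%), against 1.66% and 0.662% of 10276 protein-coding genes. Of 87 rows for microRNAs and small nucleolar RNAs, 11 were 2-fold apart; such short rows can take reads of host transcripts and are not described further.

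Developmental genes moved in both directions. Of 14 Hox genes 8 rose and 3 fell, and none changed 2-fold. The upward lean was lost after quantile normalization, which gave 6 higher and 6 lower of the 17 tested, against 10 and 3 without it. Hoxb13, the most posterior gene of its cluster, stood at 19.5 and 19.7 RPKM in wild type and 31.4 and 33.9 in knockout (0.71 ± 0.04), Hoxb8 rose by 0.44 ± 0.05 and Hoxb6 by 0.37 ± 0.05. In the HoxC cluster, from which Hotair itself is made, Hoxc10 and Hoxc12 fell (-0.12 ± 0.04 and -0.22 ± 0.08), calls that were each lost when 1 library was left out. For Hoxc10 these were the first wild-type (-0.09) and either knockout library (-0.11 and -0.13), and for Hoxc12 the second wild-type (-0.16) and the first knockout library (-0.17). Of 24 other patterning factors 15 rose and 4 fell. Another 9 entered through knockout and 3 through wild type, and their direction follows largely from that entry. Zic1, a zinc finger gene of dorsal mesoderm and neural tube, stood at 1.89 and 1.797 and 5.47 and 4.86 (1.11 ± 0.07), Prrx2, of limb and skin mesenchyme, at 39.1 and 39.6 and 82.4 and 84.3 (1.06 ± 0.03), and Tbx15 rose by 0.86 ± 0.06. The falls were smaller, with Twist2, a factor of dermal fibroblasts, at -0.39 ± 0.03 and Msx2 at -0.37 ± 0.06, and Irx3, which entered through wild type, at -0.46 ± 0.06.

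Imprinted genes, which are read from one parental copy and are named in the title of the series, gave 18 higher and 9 lower of 33, and all 5 that were 2-fold apart were higher. Beside Dlk1, H19 stood at 5.92 and 5.86 RPKM in wild type and 30.2 and 31.01 in knockout, Dio3, which inactivates thyroid hormone, at 20.4 and 20.2 and 82.2 and 84.7, and Mest at 2.72 and 2.12 and 9.98 and 9.79. Each pair of knockout libraries lay above the wild-type pair. Dio3os, transcribed next to Dio3, rose with it (1.14 ± 0.09), and the short row of Mir675 lies within H19. The falls were all under 2-fold, led by Ndn (-0.38 ± 0.03) and Snrpn (-0.27 ± 0.06, a call lost at -0.22 without the second knockout library).

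Some rows in the 2-fold set are copies that may share reads. All 12 tested rows of histone H4 genes in the Hist1 cluster fell, 11 of them at least 2-fold, with differences from -1.61 to -0.97; Hist1h4m stood at 33.2 and 32.8 RPKM in wild type and 9.16 and 11.3 in knockout. The 57 other clustered histone rows had a median of -0.22, with 44 called lower and none 2-fold. Histone mRNAs of dividing cells largely lack poly(A) tails, so their level after poly(A) selection is not their whole amount. All 5 proliferin rows fell at least 2-fold (Prl2c2 25.1 and 23.5, then 8.75 and 8.56), and 8 of 10 rows of the repeat RNA Rn4.5s were at least 2-fold higher with shared values. The predicted row Gm8096 lay among the largest falls (-1.74 ± 0.03) and 3000002C10Rik among the rises, where its knockout libraries stood at 2.02 and 29.8 RPKM, too far apart to give a level.

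By position, 190 higher and 78 lower genes of the 2-fold set could be placed on a chromosome. Neighbours among the tested genes shared their direction in 10 runs of higher genes (20 genes) and 7 runs of lower genes (17 genes). Such runs included Prelp with Fmod, Dcn with Lum, Dio3os with Dio3, H19 with Mir675, Malat1 with Neat1, and Col4a1 with Col4a2. Prelp and Fmod, and Dcn and Lum, are pairs of proteoglycan genes, and Mir675 lies within H19. Most of the lower runs were of close copies that may share reads. They were Prl2c4 with Prl2c2 and Prl2c5, Hist1h4j with Hist1h4k, Hist1h4m with Hist1h4n, Hist1h4b with Hist1h4a, and Lce1c with Lce1g, Lce1h and Lce1i. On the higher side Lyz2 with Lyz1 is such a pair. Chromosome 13 held 18 of the lower genes among 404 tested (4.46%), mostly the histone and proliferin rows, and chromosomes 8 and 17 held 2 higher genes each (0.347% and 0.37%). These counts are descriptions without a test.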

How the data were processed

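The deposited table holds, for each gene and RNA library, RPKM values that the authors computed from reads of poly(A)-selected RNA (2 wild-type, 2 heterozygous and 2 knockout libraries); the unit was identified from the numbers. The aligner was TopHat and the build mm9, per the submitters' processing notes; the version and any use of the strand in counting: not given in the sources used here. Depth was recovered from the step that 1 read makes in low values (27.9M to 48.1M read equivalents).

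Values were taken as log2(RPKM + 1), which understates changes of low genes. Genes had to reach 1 RPKM in 2 or more of the 4 wild-type and knockout libraries. limma 3.58.1 (R 4.3.3) fitted 3 group means over all 6 libraries, two-sided, with 3 residual degrees of freedom, an intensity trend and Benjamini-Hochberg adjustment at 0.05. Errors of log2 differences are SE. In simulated data (10220 genes) 49% of genes set 1.25-fold apart were recovered, 83.3% of those 1.5-fold apart and 98% of those 2-fold apart. Of 10027 genes left alone 8 were called. The simulated counts varied little beyond counting error, and most genes were left alone. These rates therefore do not cover spread between animals or cultures. Named were Hotair, the 20 largest rises and falls without overlap, up to 4 called genes of each of 67 lists (1936 of 1948 symbols matched) and cell type markers; further genes are named with their values known. Some genes that this rule selects are not reported here. The gene set, lists and rules were chosen with earlier results of these data known. Gene types, neighbours and promoters come from RefSeq tables of GRCm38.p6, in which 10634 tested genes were found by symbol or synonym. Alternatives were other pseudocounts, filters, scalings and models, a replicate block, and leaving out each library.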

Additional observations from a re-analysis of the deposited data

How the results depend on the processing

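Of 15 alternatives, a filter at 5 RPKM, which tests 6686 genes, lowered the calls to 4713 (2266 higher) and the genes at least 2-fold higher to 129. The pseudocount set the 2-fold count, with 671 (533 higher, 138 lower) at 0.1 and 86 (53 and 33) at 5, and quantile normalization left 133 higher. Leaving out 1 library at a time gave 6225 to 6673 calls and 271 to 285 genes 2-fold apart; the lone sample of a group is then assumed to vary like the other groups. Replicate numbers did not pair the samples: deviations of same-numbered libraries correlated at -0.06 (wild type and knockout), and a replicate block gave 7215 calls and the same 279 2-fold genes. Over the 352 named genes and all alternatives, 5166 values were computed, of which 5135 kept their direction and side of the threshold and 30 kept only the direction. One reversed, Reck under quantile normalization (-0.049). The balance of higher and lower calls turned in 10 of 67 lists under at least 1 alternative, and it became even in others, among them Hox genes after quantile normalization (6 and 6), and, with a filter at 5 RPKM, the BMP, GDF and TGF-beta genes (11 and 11), the IGF system (6 and 6), the glycolysis and hypoxia genes (11 and 11) and the semaphorins, netrins, slits and ephrins (7 and 7). With 2 libraries a group of unstated origin, a difference between genotypes cannot be told apart from one between cell preparations, and changes under 1.5-fold rest on a spread estimated from 3 degrees of freedom.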

Other observations

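Gap junction and signalling peptide genes, picked after their values were seen, were also apart. Gja1 (connexin 43), the main gap junction gene of fibroblasts, stood at 61.2 and 59.98 RPKM in wild type and 128 and 126 in knockout (1.05 ± 0.02 on the log2 scale) and the related Gjb2 at 1.17 and 1.07 and 4.24 and 4.05. Both connexin genes were higher in both knockout libraries. Penk, the enkephalin precursor, rose by 1.14 ± 0.05 and Cck (cholecystokinin) by 1.08 ± 0.02, while Nppb, a natriuretic peptide gene, fell by 1.01 ± 0.15. Aqp1, a water channel gene, rose by 1.26 ± 0.04.

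Of 27 immediate early genes, which respond to serum and stress within minutes, 14 rose and 6 fell. Egr1 stood at 28.2 and 28.6 RPKM in wild type and 52.5 and 52.5 in knockout, and Egr3 at 4.47 and 4.33 and 10.7 and 9.94, whereas the phosphatase gene Dusp1 stood at 77.1 and 75.9 and 43.2 and 41.8. Both Egr genes were thus higher and Dusp1 lower without overlap. Of 16 cadherin family genes 11 rose and 2 fell, led by Fat4 (1.55 and 1.61, then 5.46 and 5.52) and Pcdh7 (5.402 and 5.43, then 13.6 and 13.2). Guidance genes gave 15 higher and 8 lower of 32, with Sema3c at 1.10 ± 0.05 and the netrin gene Ntn4 at -1.13 ± 0.04.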
